A study of Mus musculus with 9 samples.

Results

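The respiratory chain of the inner mitochondrial membrane is built from 2 genomes, and the subunits that each of them encodes were compared here in mouse brain after intracerebral haemorrhage. The subunits were the entries of the deposited expression table whose gene names follow the naming of the complexes (mt-Nd, mt-Co, mt-Cytb and mt-Atp for the mitochondrial genome, and Nduf, Sdh, Uqcr, Cox and Atp5 names for the nucleus, without pseudogene names). This gave 96 genes of 33586 entries, of which 13 are mitochondrially encoded and 83 are nuclear. The genes were chosen by name, but the set was selected on a measured value, the higher level of the mitochondrially encoded transcripts in the experimental than in the control group, so that this difference is described below and supports nothing.

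The study collected total RNA from mouse brain tissue lying around the haematoma, in a model made by injecting collagenase, an enzyme that opens vessel walls. It holds 9 RNA-seq libraries, 3 in each of a group labelled control, one labelled experimental and one labelled intervention. The sources used here do not give what the control group received, whether it bled, what the intervention was, or the strain, age, sex and time of sampling. Nor do the labels state whether each replicate is an animal of its own, and p-values therefore measure only the spread between these samples, which may be technical.

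Complexes I, III and IV pass electrons from NADH to oxygen and pump protons, complex II feeds in electrons from succinate, and complex V (ATP synthase) uses the proton gradient to make ATP. Complex II is wholly nuclear, whereas each of the others mixes mitochondrial subunits, which sit in its membrane core, with a larger number of nuclear ones. Mitochondrial genes are read from both strands as long precursors that are cut into single RNAs, while nuclear subunits have their own promoters. Neurons depend on this system more than most cells.

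Levels are in FPKM, fragments scaled to the length of the gene and to the number mapped in the library, as deposited, and they are per length, so that genes can be compared. The number of reads behind them is unknown. FPKM summed over all entries ran from 303394 to 351195 over the 9 libraries, and between 13408 and 14260 genes reached 1 FPKM. Markers of brain were present throughout: the 12 neuronal markers summed to between 867 and 1408 FPKM in every library. A gene was tested when it reached 1 FPKM in at least 3 of the 9 libraries, which 14570 genes did, among them 94 of the 96 subunits (13 mitochondrial and 81 nuclear). Genes were called with limma, at an adjusted p (Benjamini-Hochberg over all genes tested) under 0.05, and log2 fold changes are on the scale of log2(FPKM + 1), with their SE.

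Neighbouring mitochondrial genes share bases, which bears on how far their values can be told apart, and the 3 longest shared stretches are shown here. Each is on the forward strand of the mitochondrial genome of mm10, with 20 bases of the first gene in lower case before the shared bases, in capitals. mt-Atp8 and mt-Atp6 share 43 bases (chrM:7927-7969), which is 21.1% of mt-Atp8. mt-Nd4l and mt-Nd4 share 7 bases (chrM:10167-10173). mt-Nd5 and mt-Nd6 lie on opposite strands and share 14 bases (chrM:13552-13565).
mt-Atp8 and mt-Atp6: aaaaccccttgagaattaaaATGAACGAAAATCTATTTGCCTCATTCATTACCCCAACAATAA
mt-Nd4l and mt-Nd4: caaaatctcaacctactacaATGCTAA
mt-Nd5 and mt-Nd6: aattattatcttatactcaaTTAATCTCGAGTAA
The sources used here do not state whether the counting used the strand, so that reads of the overlapping ends, and of mt-Nd6 against any transcript from the other strand of its region, cannot be told apart. Reads of mitochondrial genes may also match copies of mitochondrial DNA in the nucleus, and several nuclear subunits have processed pseudogenes, so that such values are uncertain to that extent.

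Mitochondrial and nuclear subunits lay at different orders of level. The mean over the 9 libraries ran from 965 FPKM for mt-Nd3 to 17414 FPKM for mt-Co1, the catalytic subunit of complex IV. Among the tested nuclear subunits it ran from 0.940 FPKM for Cox7a1, a muscle isoform, to 324 FPKM for Cox8a, a small subunit of complex IV. The most abundant nuclear subunit was thus below the least abundant mitochondrial one in these means.

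The experimental libraries held more RNA of the mitochondrial subunits than the control libraries, while the summed nuclear subunits overlapped. The 13 mitochondrial subunits summed to 70325, 68325 and 68906 FPKM in the control libraries, to 101921, 89594 and 87699 in the experimental libraries and to 93439, 86955 and 90950 in the intervention libraries. Every library of the last 2 groups lay above every control library, and those 2 groups overlapped each other. The nuclear subunits summed to 4191, 4472 and 4196 FPKM in control, 4204, 4464 and 3893 in the experimental and 4949, 3946 and 4370 in the intervention group. All 3 groups overlapped in this sum.

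The ratio of the 2 sums is free of any scaling of a library, because both sums come from the same library. It was 16.8, 15.3 and 16.4 in the control, 24.2, 20.1 and 22.5 in the experimental and 18.9, 22.0 and 20.8 in the intervention libraries. The control libraries lay below all others, and the experimental and intervention libraries overlapped. On the log2 scale the mean ratio was 4.01 ± 0.07 in control, 4.47 ± 0.14 in experimental and 4.36 ± 0.11 in intervention libraries (SD, n = 3), a difference of 0.46 between experimental and control and of 0.35 between intervention and control. As a share of all FPKM, the mitochondrial subunits took 22.5% to 23.0% in control, 26.1% to 29.0% in the experimental and 26.3% to 27.4% in the intervention group. With every mitochondrial entry left out of the total, the nuclear subunits took 1.85%, 1.97% and 1.85% in control, 1.77%, 1.83% and 1.69% in the experimental and 2.01%, 1.69% and 1.89% in the intervention libraries. On that scale the experimental libraries lay below all control libraries and the intervention libraries spread across them.

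**Figure D1:**
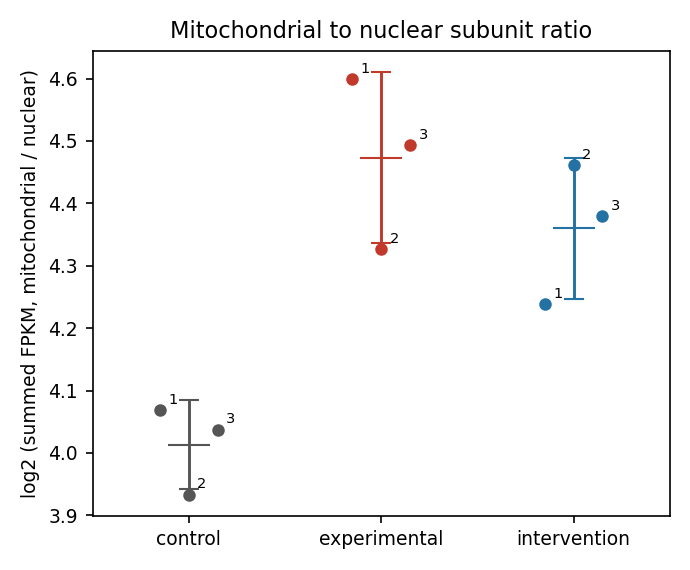
Log2 ratio of the summed FPKM of 13 mitochondrial to 83 nuclear subunits in each library, by group; numbers are replicate numbers, and bars show the mean ± SD of 3 libraries. The 3 control libraries lie below the other 6, whose groups overlap.

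Sums of several cell type markers also differed between the control group and the other groups. Within groups the neuronal sum did not fall as the ratio rose. Experimental replicate 1 had the highest ratio and the highest neuronal sum of its group, and intervention replicate 1 the lowest of both in its group. The 12 neuronal markers, such as Syp and Snap25 of synaptic vesicles, summed to between 1355 and 1408 FPKM in control, 867 and 951 in the experimental and 994 and 1030 in the intervention group. The 12 markers of microglia and macrophages, such as Csf1r and C1qb, summed to between 118 and 133, 990 and 1110, and 684 and 993 FPKM in the same order. The 10 astrocyte markers summed to between 512 and 525, 1131 and 1518, and 1120 and 1293 FPKM, and the 8 endothelial markers to between 65.5 and 71.9, 135 and 160, and 113 and 125 FPKM. In experimental against control libraries, 11 of 12 neuronal markers were lower, and 12 of 12 microglial, 9 of 10 astrocyte and 8 of 8 endothelial markers were higher past the threshold. The 8 oligodendrocyte markers summed to between 1177 and 1424 FPKM in control, 1542 and 1760 in experimental and 1394 and 2254 in intervention libraries, and 2 of 8 were higher past the threshold in the experimental group and 3 in the intervention group. The 6 red cell markers summed to between 108 and 199, 76.3 and 107, and 65.4 and 84.2 FPKM in the same order, and of the 5 tested 1 was lower in the experimental and 5 were lower in the intervention group. In bulk tissue, fewer cells of a type and less RNA per cell cannot be told apart, and the part of the cell types in the results below was not tested.

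All 13 mitochondrially encoded subunits were higher in the experimental than in the control group past the threshold, in groups that did not overlap for any of them. Of all genes tested, 37.2% passed the threshold in this comparison (19.9% higher) and 51.1% had groups that did not overlap (25.7% higher); since the set was selected on this contrast, nothing is read from the count. The log2 fold changes lay between 0.35 (mt-Nd4l) and 0.55 (mt-Nd6), with a median of 0.42 against -0.03 for all genes tested. With quantile normalization, which gives the same values to the highest ranks of every library, this direction was not kept, and 8 of the 13 turned to a value below 0. With no filter on low values the signs were kept and 0 of the 13 passed, where 5101 of all genes with any value above 0 passed. The cause was not tested.

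Complex I holds 7 mitochondrial subunits, all part of its proton-pumping membrane arm. mt-Nd1 was at 6092, 6234 and 6000 FPKM in control, 9121, 7760 and 7393 in the experimental and 8722, 7503 and 7861 in the intervention libraries, so that all control libraries were the lowest. Its log2 fold change was 0.40 ± 0.10 for the experimental and 0.39 ± 0.10 for the intervention libraries, each against control. mt-Nd6, the only subunit read from the other strand, was at 2546, 2210 and 2761 FPKM in control, 3833, 3584 and 3519 in the experimental and 3917, 3619 and 3542 in the intervention libraries. It had the largest log2 fold change of the 13 in both comparisons with control, at 0.55 ± 0.10 and 0.56 ± 0.10. mt-Nd3, the subunit of lowest level, was at 767, 850 and 774 FPKM in control, 1116, 999 and 1012 in the experimental and 1220, 965 and 980 in the intervention libraries. mt-Nd2, mt-Nd4, mt-Nd5 and mt-Nd4l had log2 fold changes of 0.46, 0.38, 0.46 and 0.35 in the experimental group.

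The mitochondrial subunits of complexes III, IV and V had log2 fold changes in the same range. mt-Cytb, the cytochrome of complex III, was at 6014, 6045 and 6376 FPKM in control, 9300, 8349 and 8479 in the experimental and 9390, 8182 and 8008 in the intervention libraries. Its log2 fold change was 0.50 ± 0.09 for experimental and 0.47 ± 0.09 for intervention libraries. mt-Co1 was at 15119, 14715 and 14503 FPKM in control, 21491, 18739 and 17609 in the experimental and 17844, 17644 and 19060 in the intervention libraries, again with control lowest and the other groups overlapping. Its log2 fold changes were 0.38 ± 0.10 and 0.30 ± 0.10, and those of mt-Co2 and mt-Co3, its partners in the core of complex IV, were 0.42 and 0.39 in the experimental group. mt-Atp6, the proton channel subunit of complex V, was at 7208, 6565 and 6950 FPKM in control, 10743, 8846 and 8687 in the experimental and 10131, 9048 and 8953 in the intervention libraries. Its log2 fold changes were 0.44 ± 0.11 in both comparisons with control. mt-Atp8, which shares bases with it, had 0.47 ± 0.10 and 0.41 ± 0.10. Experimental replicate 1 was the highest of its group for 12 of the 13 subunits, by a median of 0.12 on the log2 scale over the group mean.

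**Figure D2:**
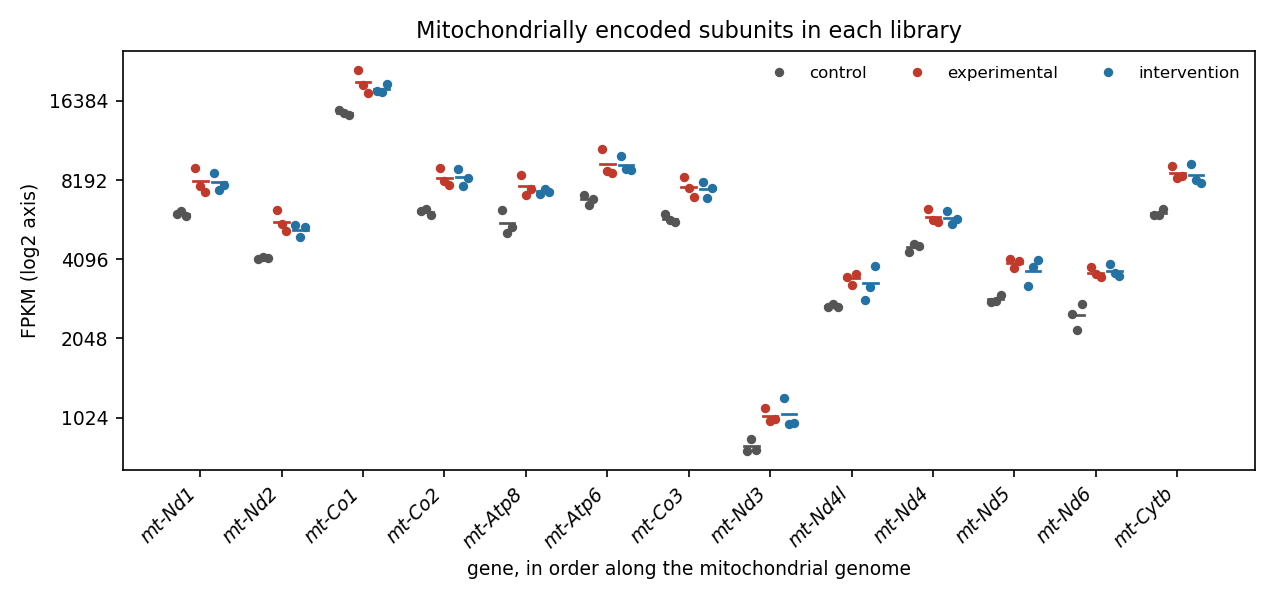
FPKM (log2 axis) of the 13 mitochondrial subunits in each library, in gene order along the mitochondrial genome; points are libraries and lines are means of 3. Control libraries lie lowest for every gene, and experimental and intervention libraries overlap for every gene.

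In the intervention group, 12 of the 13 mitochondrial subunits were higher than in control past the threshold, beside 28.3% of all genes tested that passed and 16.9% that were higher. The exception was mt-Nd4l, whose log2 fold change was 0.28 ± 0.11 (limma, adjusted p = 0.0867), and the groups of all 13 did not overlap, beside 44.1% of all genes without overlap and 23.5% that were also higher. The median was 0.39, against -0.00348 for all genes tested. This comparison shares its control libraries with the one before, so that the 2 are not independent. The count of 12 fell to 6, 5 and 6 without control replicates 1, 2 and 3, and to 8 without intervention replicate 1. In these fits, calls over all genes in either direction fell from 4120 to 2898, 2798, 3260 and 2668. The count of 12 fell to 6 when each library was rescaled to the same total, and to 0 with quantile normalization or with no filter on low values. Over all genes these settings called 5328, 4050 and 3286. Without any 1 of the experimental libraries, 11 to 12 mitochondrial subunits passed.

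Between intervention and experimental libraries no subunit passed the threshold, and 0.0% of all genes tested did. limma called 0 of 14570 genes after adjustment, 1352 had an unadjusted p under 0.05, and the other settings called between 0 and 35 genes. The mitochondrial subunits had a median log2 fold change of -0.02, with 10 of 13 below 0, and the nuclear ones had 0.09, with 70 of 81 above 0, against 0.01 for all genes. No mitochondrial subunit had groups that did not overlap, and of the nuclear ones 3 were higher and 1 was lower without overlap, where 5.07% and 8.16% of all genes were. The 3 were Ndufa10 and Ndufa12, accessory subunits of complex I, and Cox6a2, and the 1 was Cox4i2, an isoform of complex IV subunit 4 (log2 fold change -0.37 ± 0.11, adjusted p = 0.284).

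Among the nuclear subunits few passed the threshold between experimental and control groups. Of the 81 tested, 1 was higher, 7 were lower and 73 did not pass, beside 19.9% higher and 17.3% lower among all genes tested. Their median log2 fold change was -0.05, against -0.03 for all genes. Groups did not overlap for 6 nuclear subunits that were higher and 18 that were lower, beside 25.7% and 25.5% of all genes. In the intervention group against control, 1 of 81 was higher and 0 were lower (all genes 16.9% and 11.4%), with a median of 0.04, and groups did not overlap for 7 higher and 5 lower (all genes 23.5% and 20.5%). The count of 7 was 1, 2 and 3 without control replicates 1, 2 and 3. It was 1 without experimental replicate 1 and 3 without experimental replicate 3, so that it was not kept without any 1 of them. In the same fits, calls over all genes in either direction fell from 5415 to 4292, 4414, 4605, 4662 and 4341. Without experimental replicate 2, Ndufs1, Ndufv1 and Ndufa10 lost their calls, and Ndufs7 and Ndufv2 passed.

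How many nuclear subunits were lower depended on the scaling of the libraries. The FPKM totals were larger in the experimental and intervention groups, and rescaling each library to the same total moved the median of all genes to -0.18 (experimental against control) and -0.15 (intervention against control). On that scale 33 nuclear subunits were lower and 1 was higher in the experimental group, with a median of -0.21, close to that of all genes, of which 32.0% were lower and 14.9% higher. With the mitochondrial entries left out of the total, 20 were lower and 1 was higher, with a median of -0.11 against -0.09 for all genes, of which 22.0% were lower and 17.8% higher. The mitochondrial subunits kept a median of 0.26 with the same total and 0.36 with their own entries left out, and 10 and 12 of the 13 were higher past the threshold. In the intervention group 14 and 4 nuclear subunits were lower under the 2 scalings (all genes 24.9% and 15.3%), and 6 and 10 of the mitochondrial ones were higher (all genes 11.7% and 14.4%).

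The 7 lower nuclear subunits were for the most part large ones, among them both subunits of the catalytic head of ATP synthase. Atp5a1, its alpha subunit (ENSMUSG00000025428.15, chr18:77773729-77782869), was at 257, 254 and 249.8 FPKM in control, 198, 224 and 219 in the experimental and 223, 223 and 232 in the intervention libraries, with control highest. It fell by 0.25 ± 0.07 on the log2 scale in the experimental group (limma, adjusted p = 0.0221), and had -0.16 ± 0.07 in the intervention group (adjusted p = 0.114). Atp5b, the beta subunit, which carries the catalytic sites (chr10:128083273-128090391), was at 235, 249 and 229 FPKM in control, 193, 212 and 199.7 in the experimental and 209, 199.5 and 224 in the intervention libraries. It fell by 0.24 ± 0.08 (adjusted p = 0.0344). Control libraries were the highest for both genes, with no overlap. Leaving out 1 library at a time gave an adjusted p of up to 0.0738 for Atp5a1, with the call lost when any 1 control library or experimental replicate 1 was left out, and of up to 0.119 for Atp5b, whose call was lost also without experimental replicate 3.

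In complex I, 3 nuclear subunits fell. Ndufs1, its largest subunit, with iron-sulphur clusters of the electron path (chr1:63143596-63176833), was at 19.1, 17.7 and 17.4 FPKM in control, 14.4, 15.2 and 15.6 in the experimental and 14.8, 16.2 and 16.7 in the intervention libraries. It fell by 0.25 ± 0.07 (limma, adjusted p = 0.0224), and control libraries were the highest in both comparisons. Ndufv1, which binds NADH (chr19:4007384-4012806), was at 46.9, 49.9 and 47.0 FPKM in control, 40.6, 42.7 and 38.8 in the experimental and 49.3, 41.8 and 43.2 in the intervention libraries, and fell by 0.23 ± 0.08 (adjusted p = 0.0453). Ndufa10, an accessory subunit (chr1:92439010-92473860), was at 39.6, 38.9 and 37.7 FPKM in control, 34.4, 33.3 and 33.1 in the experimental and 36.8, 34.5 and 36.7 in the intervention libraries, and fell by 0.20 ± 0.06 (adjusted p = 0.0311). The experimental libraries of each gene lay below all its control libraries. These calls were near the threshold: without 1 library the adjusted p reached 0.0849 for Ndufs1 (lost without control replicate 1 or experimental replicates 1 or 2), 0.135 for Ndufv1 and 0.0986 for Ndufa10, and the last 2 were lost when any 1 control or experimental library was left out (Ndufv1 also without intervention replicate 3).

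No other nuclear subunit of complex I passed the threshold between experimental and control groups on the deposited scale, and others were lower past it with each library rescaled to the same total. Ndufs7 had the lowest log2 fold change of the complex, -0.30 ± 0.12 (limma, adjusted p = 0.0813). Ndufb9, the most abundant nuclear subunit of the complex, was at 92.8, 102 and 92.4 FPKM in control, 112, 104 and 75.9 in the experimental and 114, 83.9 and 104 in the intervention libraries, with all groups overlapping. Ndufa2 and Ndufa3 had the highest log2 fold changes of its nuclear subunits, 0.24 ± 0.14 and 0.18 ± 0.12 (adjusted p = 0.21 and 0.262), and Ndufb2 had -0.26 ± 0.09 (adjusted p = 0.0529).

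No subunit of complex II passed the threshold on the deposited scale. In the experimental group 1 of the 4 was lower past it with each library rescaled to the same total (all genes 32.0%). With mitochondrial entries left out, 1 was lower (all genes 22.0%). In the intervention group 1 and 0 were lower under these scalings (all genes 24.9% and 15.3%). Sdha, which binds FAD and succinate, was at 93.8, 87.9 and 96.8 FPKM in control, 73.8, 84.9 and 81.2 in the experimental and 81.7, 90.0 and 85.1 in the intervention libraries, and its experimental libraries lay below all control libraries (log2 fold change -0.21 ± 0.08, limma adjusted p = 0.057). Sdhb, the iron-sulphur subunit, had -0.09 ± 0.11, and the membrane anchors Sdhc and Sdhd had 0.16 ± 0.09 and 0.07 ± 0.09.

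In complex III, the large subunits had lower log2 fold changes than the small ones in the experimental group. Uqcrc2, a core protein of the complex (chr7:120635176-120659524), was at 88.5, 80.4 and 76.5 FPKM in control, 62.9, 71.3 and 67.1 in the experimental and 75.1, 67.5 and 73.7 in the intervention libraries, with control highest throughout. It fell by 0.28 ± 0.08 in the experimental group (limma, adjusted p = 0.025), and leaving out 1 library gave up to 0.0963, with the call lost without control replicates 1 or 2 or experimental replicates 1 or 3. Uqcrc1, the other core protein, had -0.18 ± 0.07 (adjusted p = 0.0837), and Uqcrfs1, the Rieske iron-sulphur protein, had -0.09 ± 0.08. The 5 small subunits were all above 0 on the deposited scale, with a median of 0.10, and none passed; with each library rescaled to the same total 2 of them were above 0 (median -0.06), and with mitochondrial entries left out of the total 3 were. Uqcr11 was highest with 0.22 ± 0.16. Uqcr10, the most abundant of the small subunits, was at 63.1, 68.4 and 70.1 FPKM in control, 80.3, 81.3 and 68.8 in the experimental and 99.4, 64.2 and 78.4 in the intervention libraries, with all groups overlapping.

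The same order appeared over all nuclear subunits when they were set against the length of their coding sequence. Over 77 nuclear subunits with an annotated coding length, which ran from 156 to 2181 bases, Spearman's rho between length and the log2 fold change was -0.60 for experimental against control libraries and -0.54 for intervention against control libraries. Over 12612 other genes it was -0.11 and -0.16. With the length of all exons in place of the coding length, rho was -0.46 and -0.44 over 78 nuclear subunits. Over 14199 other genes it was then -0.16 and -0.24, so that the contrast was smaller. The 21 subunits of up to 300 coding bases had a median of 0.14 in the experimental group, where 238 other genes of that length had 0.08. The 9 subunits over 1200 bases had a median of -0.23 and 5 of them fell, which is 55.6%, where 7453 other genes of that length had -0.06 and 20.3% fell. Genes are not independent replicates and all share the same libraries, so that these are descriptions, and no p is given. Length and role move together among the subunits, since the cofactor and catalytic subunits are the long ones, and the 2 cannot be told apart here. Among the 13 mitochondrial subunits rho was -0.04.

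**Figure D3:**
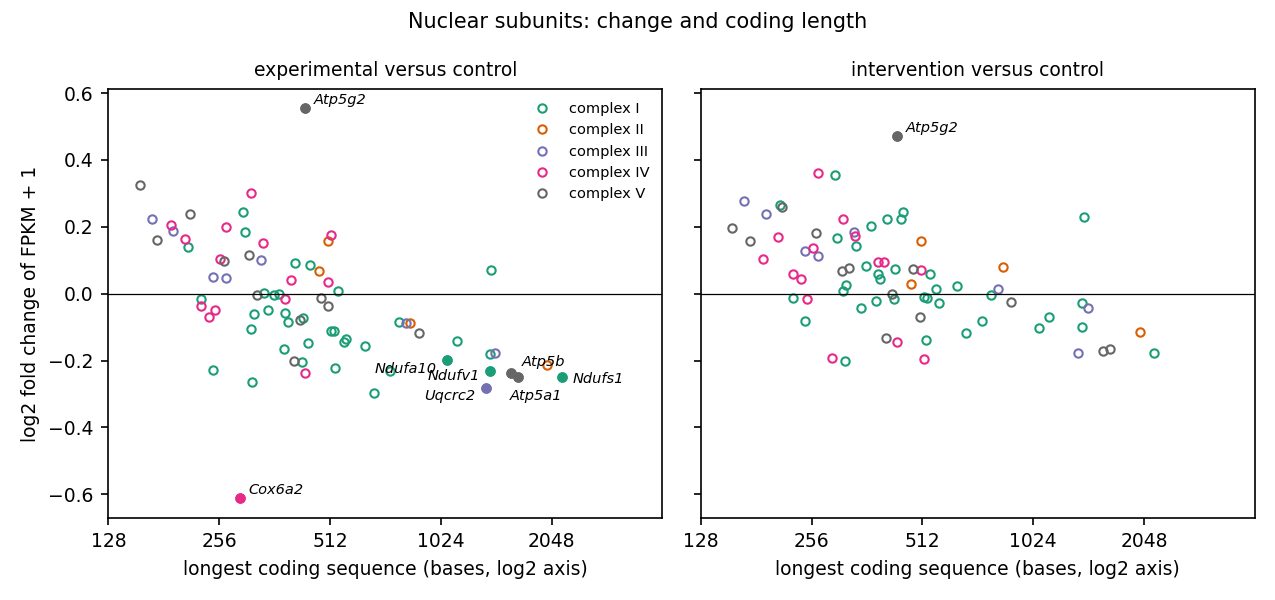
Log2 fold change of FPKM + 1 of 77 nuclear subunits against the length of the longest coding sequence (log2 axis), with experimental libraries (left) or intervention libraries (right) set against control; colours are complexes and filled points passed the threshold. Short subunits lie higher than long ones, with Spearman's rho of -0.60 and -0.54.

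On the deposited scale, 1 of 16 tested nuclear subunits of complex IV passed the threshold between experimental and control groups. This was Cox6a2, a minor isoform, which was lower, as were 17.3% of all genes tested. With each library rescaled to the same total 2 of the 16 were lower (all genes 32.0%), and 2 with mitochondrial entries left out (all genes 22.0%). Cox8a, the most abundant nuclear subunit of all, was at 271, 352 and 272 FPKM in control, 388, 329 and 287 in the experimental and 394, 267 and 354 in the intervention libraries. Cox6a1, the widely expressed isoform of subunit 6a, was at 242, 274 and 236, then 306, 283 and 249, then 337, 229 and 293 FPKM, and Cox4i1 ran from 183 to 248 FPKM over the 9 libraries. All 3 genes had overlapping groups. Cox6b1, Cox7a2, Cox7a2l and Cox7b had log2 fold changes of 0.10, -0.05, 0.04 and -0.07 in the experimental group, and none passed. Cox5a, a nuclear subunit at 39.6 to 45.6 FPKM in control, had -0.24 ± 0.10 (limma, adjusted p = 0.0795, and 0.00553 to 0.221 over the settings run). Cox7c had 0.21 ± 0.12.

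Cox6a2, the heart and skeletal muscle isoform of subunit 6a, had the largest decrease of the tested nuclear subunits. It was at 4.82, 7.16 and 5.79 FPKM in control, 3.52, 3.06 and 3.92 in the experimental and 5.16, 4.53 and 5.34 in the intervention libraries, so that the experimental group lay below both others without overlap. Its log2 fold change was -0.61 ± 0.13 against control (limma, adjusted p = 0.00453), and it stayed past the threshold without any 1 of the 9 libraries, with an adjusted p of up to 0.0192. Its share of the summed Cox6a1 and Cox6a2 was 2.30% ± 0.31 in control, 1.25% ± 0.26 in experimental and 1.75% ± 0.22 in intervention libraries (SD, n = 3). Between intervention and experimental libraries the difference was 0.42 ± 0.13 (adjusted p = 0.269). The 8 markers of skeletal muscle summed to between 3.33 and 4.80 FPKM in all libraries, with Ckm at no more than 0.0857 FPKM. Pvalb, a marker of fast-spiking interneurons chosen after values were seen, was at 45.3 ± 11.3, 25.6 ± 1.34 and 33.2 ± 9.78 FPKM in the 3 groups (log2 fold change -0.77 ± 0.23 in the experimental group, adjusted p = 0.0249), and its part in the result was not tested.

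The other tissue isoforms were near the floor of detection. Cox4i2, an isoform linked to low oxygen and to lung, was at 2.57, 2.39 and 1.86 FPKM in control, 3.15, 2.54 and 2.39 in the experimental and 2.07, 1.82 and 1.67 in the intervention libraries. Its experimental libraries lay above all intervention libraries and overlapped the control. Cox7a1 ran from 0.289 to 1.47 FPKM and Cox6b2, the testis isoform, from 0.866 to 2.09 FPKM, with overlapping groups. Cox6b2 and Cox7a1 reached 1 FPKM in 1 control library each. The 2 subunits below the filter were Cox8b, at 0.780, 0.474 and 0.247 FPKM in the group means, and Cox7b2, at 0.348, 0.356 and 0.0684 FPKM. The two-sided exact permutation p for the experimental against the control group was 0.2 for Cox8b and 0.8 for Cox7b2. For the intervention group it was 0.2 against control and 0.4 against experimental for Cox8b, and 0.1 against each for Cox7b2. The smallest that 3 against 3 libraries allow is 0.1.

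The c ring, the rotor of ATP synthase in the membrane, held the 1 nuclear subunit that rose. Its c subunit is made from 3 nuclear genes on different chromosomes, whose mature products are the same protein and whose import sequences differ. Atp5g2 (ENSMUSG00000062683.11, chr15:102662864-102672352) was at 21.8, 18.7 and 25.0 FPKM in control, 30.8, 36.0 and 30.5 in the experimental and 38.0, 29.6 and 25.1 in the intervention libraries. All 6 libraries of the last 2 groups lay above the control, though intervention replicate 3, at 25.1 FPKM, lay next to control replicate 3. The log2 fold change was 0.55 ± 0.15 in the experimental (limma, adjusted p = 0.0181) and 0.47 ± 0.15 in the intervention group (adjusted p = 0.0451). Without control replicate 2 or experimental replicate 2 the first call was lost, with an adjusted p of up to 0.0656, and the second was lost in 7 of the 9 fits that left out 1 library (up to 0.143).

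The 2 other c subunit genes did not pass the threshold on the deposited scale. Both were lower past it in the experimental group with each library rescaled to the same total, as were 32.0% of all genes. Atp5g1 was at 14.7, 13.4 and 13.9 FPKM in control, 11.5, 12.7 and 11.9 in the experimental and 14.0, 12.0 and 12.0 in the intervention libraries, with the experimental libraries below all control libraries (log2 fold change -0.20 ± 0.08, limma adjusted p = 0.0756). Atp5g3, the most abundant, was at 60.9, 63.8 and 64.8, then 55.7, 65.5 and 58.5, then 68.9, 60.9 and 60.1 FPKM, with overlapping groups. The share of Atp5g2 in the sum of the 3 genes was 22.4%, 19.5% and 24.1% in control, 31.4%, 31.5% and 30.3% in the experimental and 31.4%, 28.9% and 25.8% in the intervention libraries, with control below all others. This share is free of library scaling. The sum of the 3 genes was 99.0 ± 4.18, 104.3 ± 8.67 and 106.9 ± 12.5 FPKM, which overlapped.

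**Figure D4:**
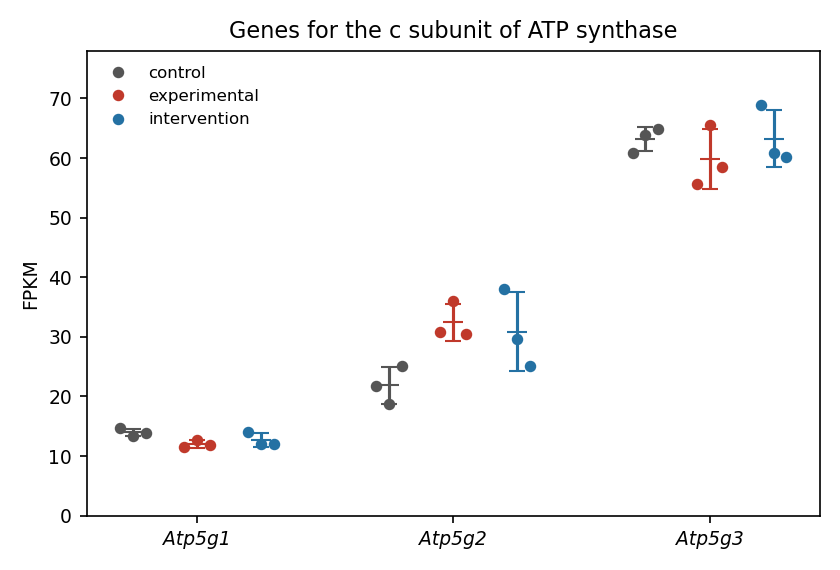
FPKM of the 3 genes for the c subunit of ATP synthase in each library; points are libraries, and bars show mean ± SD of 3. For Atp5g2 the control libraries lie below all others, whereas the groups of Atp5g3 overlap.

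The promoters of the 3 c subunit genes are shown because the genes make the same mature protein and only Atp5g2 of the 3 was higher past the threshold. Each is the 250 bases before the gene start of RefSeq (GRCm38.p6), in the direction of the gene, with the motif of NRF1, a factor known to bind promoters of many respiratory genes, in capitals where found. The stretch of Atp5g2 lies inside the gene span given above, which comes from GENCODE, so that the annotations place its start differently. Its motif lies before the start of RefSeq and not before that of GENCODE.
Atp5g1 (chr11:96075632-96075881, minus strand): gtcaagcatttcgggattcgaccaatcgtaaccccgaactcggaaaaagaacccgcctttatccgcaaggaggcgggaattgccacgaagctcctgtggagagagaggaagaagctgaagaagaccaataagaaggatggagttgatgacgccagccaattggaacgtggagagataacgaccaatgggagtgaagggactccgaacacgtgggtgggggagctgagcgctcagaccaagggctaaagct
Atp5g2 (chr15:102671048-102671297, minus strand): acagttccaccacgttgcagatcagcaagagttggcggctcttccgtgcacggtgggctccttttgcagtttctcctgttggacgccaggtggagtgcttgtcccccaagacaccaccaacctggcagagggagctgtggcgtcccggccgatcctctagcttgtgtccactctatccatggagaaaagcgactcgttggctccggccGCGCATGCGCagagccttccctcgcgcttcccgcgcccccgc
Atp5g3 (chr2:73911327-73911576, minus strand): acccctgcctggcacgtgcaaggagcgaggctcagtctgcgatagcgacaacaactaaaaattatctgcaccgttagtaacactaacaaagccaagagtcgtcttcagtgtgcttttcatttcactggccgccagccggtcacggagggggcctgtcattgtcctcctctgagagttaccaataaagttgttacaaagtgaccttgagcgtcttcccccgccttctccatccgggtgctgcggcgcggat
The motif searched was GCGCA followed by any base and GCGC, on both strands. Of the 81 tested nuclear subunits, 66 had a RefSeq promoter of this length, and 13 of these held the motif. This is 19.7%, beside 8.82% of 10416 other tested genes and 4.23% of all 27025 genes with such a promoter. A gene was counted once, when any of its promoters held the motif. The median log2 fold change in the experimental group was -0.05 for the 13 with it and -0.07 for the 53 without. A match is a description of the letters and not evidence of binding. The motif CCGGAAG, of the GABP factor, was in 18.2% of the 66, 14.7% of the other tested genes and 7.83% of all 27025 genes. The motif AAGATGG, of the YY1 factor, was in 1 of the 66, which is 1.52%, in 5.06% of the other tested genes and in 5.18% of all 27025 genes. Both were searched on both strands.

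No other subunit of ATP synthase passed the threshold between experimental and control groups on the deposited scale. Atp5c1, the gamma subunit of the central stalk, had a log2 fold change of -0.12 ± 0.08 in the experimental group, and the 4 subunits of the peripheral stalk (Atp5h, Atp5j, Atp5o and Atp5pb) lay between -0.19 and 0, with a median of -0.04. Atp5e, the short epsilon subunit, was at 14.7, 18.1 and 17.0 FPKM in control, 21.4, 22.7 and 19.1 in the experimental and 23.8, 16.4 and 17.9 in the intervention libraries. Its experimental libraries lay above all control libraries (0.33 ± 0.13, limma adjusted p = 0.0852). The 5 small membrane subunits had a median of 0.12, with 4 above 0, and a median of -0.03, with 2 above 0, when each library was rescaled to the same total.

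Nuclear subunits varied together from library to library within a group. In the intervention group replicate 1 was the highest of the 3 for 74 of 81 nuclear subunits, by a median of 0.19 on the log2 scale over the group mean, and replicate 2 the lowest for 58. In the experimental group replicate 2 was the highest for 64 and replicate 3 the lowest for 53. Over all genes tested the libraries deviated by a median of no more than 0.0315. The 82 genes for proteins of the cytosolic ribosome, chosen after values were seen, also had intervention replicate 1 as the highest library for 76, by a median of 0.27. The part of this library in the results was not tested, other than by leaving it out: without it the ratio of mitochondrial to nuclear subunits in the intervention group differed from control by 0.41 on the log2 scale, and 1 nuclear subunit was lower.

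**Figure D5:**
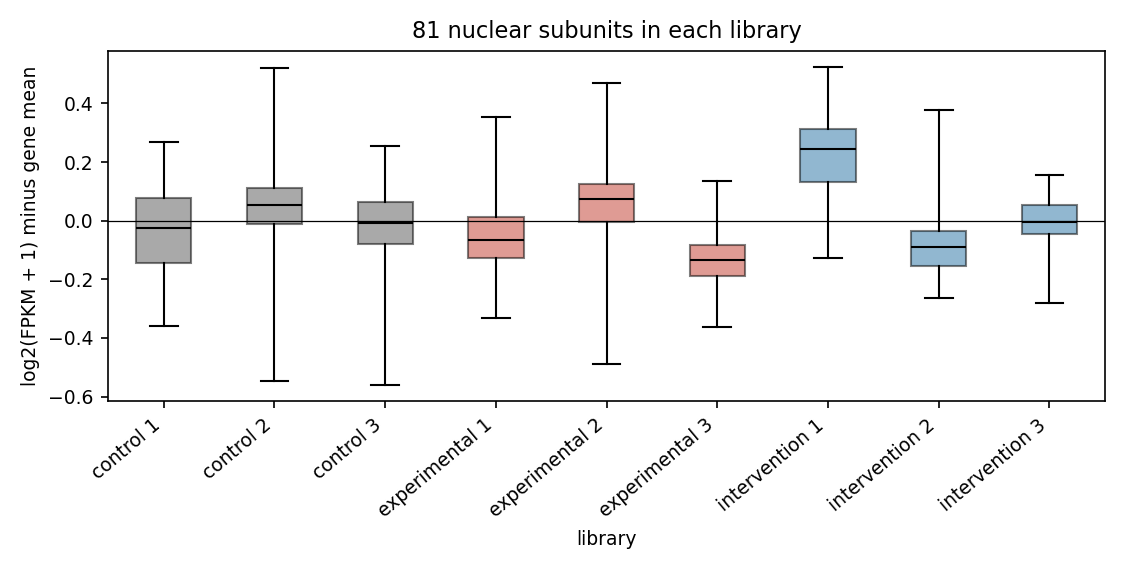
Log2(FPKM + 1) of 81 nuclear subunits in each library, as the difference from the mean of the gene over 9 libraries; boxes show quartiles and median, and whiskers the lowest and highest gene. Intervention replicate 1 lies above 0 for most genes, and experimental replicate 3 below.

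Other nuclear genes for mitochondrial proteins were set beside the subunits by list. Enzymes of the TCA cycle and pyruvate dehydrogenase, which supply NADH and succinate, had 9 of 17 genes lower and 1 higher in the experimental group, with a median of -0.21. Sucla2 was at 39.1, 37.9 and 38.5 FPKM in control and 27.1, 28.9 and 27.0 in the experimental libraries, which did not overlap (log2 fold change -0.46 ± 0.06, limma adjusted p = 0.000386). Suclg2, which pairs with the same partner subunit as Sucla2, rose from 3.53 ± 0.16 to 6.35 ± 0.33 FPKM (SD, n = 3; log2 fold change 0.70 ± 0.07, adjusted p = 8.62e-05). Of the 16 genes for ubiquinone synthesis and cytochrome c, 5 fell and none rose, among them Cycs, cytochrome c itself, with -0.36 ± 0.08, and Coq5 with -0.30 ± 0.08. Assembly factors of the complexes had 12 of 43 lower and 1 higher, with a median of -0.11. Ttc19, a factor of complex III, and Atpaf1, a factor of ATP synthase, had -0.59 ± 0.08 and -0.53 ± 0.07.

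The machinery that reads and translates the mitochondrial genome had few calls on the deposited scale. Of 33 genes for its transcription and RNA handling, 1 rose and 2 fell, with a median of -0.07. Ptcd2 and Grsf1, which handle mitochondrial RNA, fell by 0.46 ± 0.09 and 0.35 ± 0.08 (limma, adjusted p = 0.00251 and 0.00844). Tfam, the factor that packs and transcribes mitochondrial DNA, had -0.07 ± 0.09, and Polrmt, the polymerase, had -0.04 ± 0.06; both were looked up after values were seen, and neither passed. Of 78 genes of the mitochondrial ribosome, 3 rose and 3 fell, with a median of -0.04. Mrps6 and Mrpl52 rose by 1.20 ± 0.12 and 0.63 ± 0.13, and Mrpl35 and Mrpl19 fell by 0.33 ± 0.11 and 0.31 ± 0.08 (the last 2 genes were chosen after values were seen; limma, adjusted p = 0.0448 and 0.019). The lowest value was that of Mrpl53, -0.83 ± 0.29 (adjusted p = 0.0501), also chosen after values were seen. With each library rescaled to the same total, 26 of the 78 ribosome genes and 10 of the 33 genes for transcription and RNA handling were lower, beside 32.0% of all genes.

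Regulators and other mitochondrial groups were mixed. Of 14 regulators of mitochondrial biogenesis, 4 fell and 2 rose; Esrrg, a nuclear receptor for oxidative genes, had -0.97 ± 0.15 and Prkaa2, a catalytic subunit of the energy sensor AMPK, had -0.53 ± 0.10. Ppargc1a, the coactivator PGC-1alpha, had -0.42 ± 0.11 (limma, adjusted p = 0.0172). Import genes had 5 of 25 lower and 1 higher, led by Tomm70a with -0.59 ± 0.08 and Tomm20 with -0.38 ± 0.08, both receptors of the outer membrane. Genes of mitochondrial quality control and dynamics had 8 of 21 lower and 2 higher, with Dnm1l, which drives fission, at -0.45 ± 0.08 and Bnip3 at -0.46 ± 0.09. Of 10 relatives of the subunits outside the naming rule 2 rose and 1 fell: Ucp2, an uncoupling protein relative that is abundant in macrophages, was at 4.20 ± 0.60 FPKM in control, 19.8 ± 1.18 in experimental and 17.1 ± 3.27 in intervention libraries, and Ndufa4l2 had 0.63 ± 0.11. The background for all these counts is the 19.9% higher and 17.3% lower among all genes tested, and with each library rescaled to the same total the counts of lower genes were 15 of 17 for the TCA list, 22 of 43 for assembly, 10 of 16 for ubiquinone and cytochrome c, 9 of 25 for import, 13 of 21 for quality control, 5 of 14 for regulators and 3 of 10 for the relatives, beside 32.0% of all genes.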

How the data were processed

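Total RNA of 9 mouse brain libraries was sequenced; per the labels' protocols it was purified with a Qiagen kit and made into libraries with a SMARTer mRNA-seq kit. The authors deposited 1 table of FPKM per gene and library, with build mm10 per the submitters' processing notes. The sources used here name no aligner, counting tool, annotation or strand setting. Depth is unknown, so that no counting interval is given.

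Values were transformed as log2(FPKM + 1), which understates changes of low genes. All 9 libraries entered 1 limma model (3.58.1, R 4.3.3, intensity trend, a mean per group, 6 residual and 3.53 prior degrees of freedom), checked on simulated data. Each comparison was two-sided, with a threshold of 0.05 on Benjamini-Hochberg adjusted p over 14570 genes. Levels are mean ± SD, n = 3. Symbols were matched to GENCODE M21 (93 of 96 subunits had 1 entry). Named subunits were the mitochondrial ones, the most abundant and the 2 extreme changes of each complex, tissue isoforms and, outside that rule, every other one past the threshold and the c ring, with 2 genes of each list. Alternatives were pseudocount, filter, scaling, samples in the fit, trend, a replicate block and leaving out each library. Members, lists and rules were chosen with earlier results of these data known. 1 result on a group of complex I subunits is not reported here.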

Additional observations from a re-analysis of the deposited data

How the results depend on the processing

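The counts of subunits past the threshold between experimental and control (21 in all, 13 mitochondrial and 7 lower and 1 higher nuclear) and between intervention and control (13, with 12, 0 and 1) moved with the scaling and the filter. Over all genes 5415 and 4120 passed in these comparisons. With no filter on low values the counts were 5 in all for experimental against control (0 mitochondrial, 0 nuclear higher) and 0 for intervention against control (all genes 5101 and 3286). The cause was not tested. Rescaled to the same total they were 44 and 20 (all genes 6836 and 5328), with 33 and 14 nuclear lower, 6 mitochondrial higher and 0 nuclear higher in the intervention group. Rescaled without mitochondrial entries they were 33 and 15 (all genes 5802 and 4338), with 20 and 4 nuclear lower. Quantile normalization gave 10 and 4 (all genes 5720 and 4050), with 0 mitochondrial higher in both, 2 and 3 nuclear higher and 1 nuclear lower in the intervention group. It sets the top ranks equal by construction, and turned mt-Nd1 (-0.0175 and -0.0291), mt-Nd2 (-0.0737 and -0.0285), mt-Nd4 (-0.0697 and -0.0166), mt-Nd5 (-0.0354 and -0.0975), mt-Co3 (-0.0482 and -0.0241) and mt-Atp8 (-0.00587 and -0.0889) in both comparisons with control, and mt-Nd4l (-0.115) and mt-Co2 (-0.0300) in the experimental group; mt-Nd4l, not called in the intervention group, was at -0.117 there. With only the libraries of the 2 groups compared, nuclear higher counts were 3 and 0 (all genes 5351 and 3581 in either direction).

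With the replicate block, nuclear subunits lower in the experimental group numbered 2, all 13 mitochondrial subunits passed, the total was 16, and in the intervention group 0 nuclear subunits were higher. Over all genes 4702 and 3251 passed with the block. Over 9 pairs of same-numbered libraries the correlation of their deviations from the group means ran from -0.54 to 0.21 and passed 0.1 in 3. The deviations are from means of only 3 libraries and the labels state no pairing, so whether the numbers pair the samples cannot be settled here. Leaving out 1 library gave totals of 13 to 26 (experimental) and 6 to 12 (intervention), mitochondrial counts of 11 to 13 and 5 to 12, nuclear lower counts of 1 to 10 and 0 to 1, and nuclear higher counts of 0 to 3 in both. Over all genes these fits called 4292 to 5486 and 2668 to 3950. Log2 ratios of mitochondrial to nuclear subunits kept their direction, at 0.40 to 0.53, 0.30 to 0.41 and, for intervention against experimental, -0.19 to -0.05. Pseudocount 0.1, median-ratio scaling and no trend kept all these counts within 1.5 times. For intervention against experimental, 0 subunits passed in every setting run. Unknown depth and 3 libraries a group limit the precision.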

Other observations

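The mitochondrial transfer RNA genes, read from the same precursors as the subunits, did not move as 1 group. Between experimental and control libraries mt-Tm, the transfer RNA for methionine (chrM:3845-3913), was at 257, 240.4 and 278 FPKM in control, 758, 725 and 725 in the experimental and 528, 542 and 613 in the intervention libraries. It rose 2.84-fold in the experimental group on the scale of FPKM + 1 (limma, adjusted p = 1.57e-06). mt-Tq, its neighbour on the other strand (chrM:3772-3842), was at 102 ± 7.30, 229 ± 8.27 and 197 ± 18.0 FPKM in the 3 groups, and rose 2.23-fold (adjusted p = 9.78e-06). The largest rise of the 13 mitochondrially encoded subunits was 1.46-fold, for mt-Nd6. mt-Ti, mt-Tr, mt-Tk and mt-Td were also higher past the threshold, at 1.39-fold, 1.42-fold, 1.30-fold and 1.21-fold. No other transfer RNA gene passed, and 19.9% of all genes tested were higher. The 4 transfer RNAs mt-Ta, mt-Tn, mt-Tc and mt-Ty, which lie together between mt-Nd2 and mt-Co1 on the other strand, had folds between 0.975 and 1.06 and none passed. mt-Ta was at 198 ± 14.0, 206 ± 20.4 and 205 ± 7.52 FPKM. The ribosomal RNAs mt-Rnr1 and mt-Rnr2 had 1.26-fold and 1.21-fold and did not pass (adjusted p = 0.112 for both). mt-Tm and mt-Tq are only 69 and 71 bases long. How reads that span a transfer RNA gene and its neighbours were counted is unknown, and the part of such reads in these values was not tested. These genes were picked after values were seen.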
